A study of Homo sapiens with 54 samples.

Results

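Human medium spiny neuron-like (hMSN-like) cells that had received 1 mM dopamine on 5 consecutive days, for 60 min each day, and were extracted 24 h after the last dose were compared with hMSN-like cells of the same experiment labelled PBS. The libraries were taken by their labels: 3 of the 1 mM Chronic 24 h condition and 3 of the 1 mM PBS condition, so that 6 of the 53 libraries of the series with a file made up the comparison. The comparison asks which transcripts still differed a day after repeated dopamine had ended. By the study's methods the cells of both groups were differentiated from H9 (WA09), an established human embryonic stem cell line, by neural induction, patterning with activin A and maturation with BDNF and GDNF, and total RNA was sequenced. The groups therefore share 1 genetic background, and the results hold for 1 cell line.

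Several features of the design limit the comparison. The study's methods place the chronically dosed cultures at day in vitro (DIV) 50 and give no day for the PBS cultures, while acutely dosed cultures were at DIV45. Dopamine was dissolved in ascorbic acid, and the control label names PBS alone. Chronic dosing included a full exchange of the medium, and the study's methods do not say how PBS wells were handled. Dopamine, its ascorbic acid vehicle, repeated change of medium and any difference in culture age cannot be told apart in these 6 libraries. Nothing in the sources says that the 3 replicates of a condition were separate differentiations, so that p-values measure the spread between these libraries, which may be partly technical. In bulk RNA, fewer cells of a type and less RNA of a gene per cell cannot be told apart.

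Dopamine acts in the striatum through G protein-coupled receptors of the D1 and D2 classes, which raise or lower cAMP, and receptor stimulation is followed within an hour by transcription of immediate early genes such as FOS and EGR1, whose RNAs are short-lived. Dopamine is also a catechol that oxidises readily in culture medium to quinones and hydrogen peroxide. Quinones and peroxide modify KEAP1, which releases the transcription factor NRF2 to switch on genes for detoxification, glutathione, thioredoxin and iron storage. Hypoxia-inducible factor (HIF) is a second redox-sensitive regulator: its alpha subunits are marked for degradation by prolyl hydroxylases that need oxygen, iron and, in cell-free assays, ascorbate, and when stable it raises genes of glucose uptake, glycolysis and mitochondrial turnover.

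Sequencing depth was alike in both groups. Between 16122436 and 17320571 reads fell on exons in the PBS libraries and between 16135740 and 17345183 in the Chronic 24 h libraries. Reads on introns made up 19.5% to 21.8% of gene reads in PBS and 18.9% to 22.4% in Chronic 24 h. The mitochondrially encoded share of exon reads was 2.72% to 2.95% in PBS and 2.90% to 3.28% in Chronic 24 h. Among the conditions read beside the comparison, 1 library of 1 mM Acute 24 h (replicate 1, 0.826% mitochondrial reads) and 1 of 1 µM PBS (replicate 2, 12.4%) stood apart. The acutely dosed 1 mM libraries as a set had fewer reads on introns, 12.3% to 13.2% in Acute 1 h and 12.5% to 15.9% in Acute 24 h. Chronic 1 h had 20.6% to 20.9%. Levels in the acute libraries given below carry this difference, whose reason was not tested.

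The labelled cell type was checked against markers. Pan-neuronal genes were abundant, with STMN2, a microtubule regulator of growing neurites, at 1546 ± 101 TPM (SD, n = 3) in PBS and 1593 ± 84.6 in Chronic 24 h. TPM (transcripts scaled to a fixed total per library) is also scaled to exon length and allows levels of different genes to be set side by side. The defining medium spiny neuron (MSN) genes were low: DRD1, the D1 receptor, had 1.61 ± 0.895 TPM in PBS and 1.05 ± 0.355 in Chronic 24 h, and PPP1R1B, which encodes DARPP-32, had 22.2 ± 2.15 and 16.3 ± 3.54. NEUROD6, a marker of glutamatergic cortical neurons, had 1059 ± 26.2 TPM in PBS and 1032 ± 163 in Chronic 24 h. The 25 MSN markers summed to 344 to 375 TPM in the PBS libraries, against 2130 to 2236 TPM for 11 glutamatergic and cortical markers. These sums are of unlike genes, NEUROD6 being a large part of the second, and do not measure shares of cells. The second sum was lower in acutely dosed libraries, 1059 to 1256 TPM in 1 mM Acute 1 h and 1089 to 1456 in Acute 24 h. The study also reported DARPP-32 protein in many H9-derived neurons by immunostaining. The name hMSN-like is kept below as the study's name for the cultures.

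Of 16964 genes with enough exon reads to be tested, 246 (1.45%) differed between Chronic 24 h and PBS at an adjusted p under 0.05 (edgeR quasi-likelihood test, Benjamini-Hochberg). More genes were lower than higher after dopamine, with 194 lower (1.14%) and 52 higher (0.307%). The changes were mostly small. Among the 246 genes, 171 had an absolute log2 fold change under 1, and the median absolute log2 fold change was 0.676. The study's thresholds for a differentially expressed gene (DEG) add 2 conditions: a log2 fold change of 1 or more in size, and 1 TPM or more on average in the higher group. The study elsewhere gives 0.75 in place of 1. By these thresholds 17 genes (0.1%) were higher and 57 (0.336%) lower, 74 in all (0.436%), and 75 with 0.75 TPM. TPM values of the groups did not overlap for any of the 246 genes, while 14% of all tested genes had non-overlapping values with Chronic 24 h higher and 10.8% with Chronic 24 h lower.

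The number of genes passing the test depended on single libraries. Without PBS replicate 1 or without PBS replicate 2 no gene passed, although 2009 and 1815 genes had an unadjusted p under 0.05. Without Chronic 24 h replicate 1, 4 genes passed. The count was 244 without PBS replicate 3, 327 without Chronic 24 h replicate 3 and 1186 without Chronic 24 h replicate 2. All 246 genes kept the direction of their difference in each of these 6 fits with 5 libraries. No gene therefore passed in all 6, and every call below holds for the 6 libraries together. When reads on introns were counted as well (total gene reads), 174 of 25034 genes passed (0.695%), 34 of them higher (0.136%) and 140 lower (0.559%), and 137 genes passed by both counts. By the study's thresholds 50 of these were DEGs (0.2%), 9 higher (0.036%) and 41 lower (0.164%).

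Genes switched on by HIF had more members among the lower genes than any other of the 42 gene lists examined. The lists differ in length and were chosen with earlier results of these data known, so that their ranking is a description. Of 31 tested HIF targets outside glycolysis, 17 fell and none rose, with a median log2 fold change of -1.11 against 0.01 over all tested genes. Of 19 tested genes of glycolysis and lactate export, 10 fell and none rose, with a median of -0.69. In total gene reads the corresponding counts were 12 of 31 and 10 of 19. The 27 genes of both lists make up 27 of the 194 lower genes and 20 of the 57 lower DEGs, while the lists hold 50 of the 16964 tested genes.

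A property of the control libraries touches this result. The summed TPM of the HIF target list was 4415, 3271 and 2327 in the PBS libraries and 1645, 1393 and 1228 in the Chronic 24 h libraries, so that the groups did not overlap. The PBS values were also above those of all 18 other libraries of the 1 mM conditions, 1 µM PBS and 1 µM Chronic 24 h, which ranged from 1052 to 2023. The 3 libraries extracted 1 h after the last of 5 doses had 1830 to 2023, the acutely dosed libraries 1052 to 1708, and the 1 µM PBS libraries, which like the 1 mM PBS libraries received no dopamine, 1102 to 1488. The value of 1102 is that of 1 µM PBS replicate 2, which stood apart, and the other 1 µM PBS libraries had 1322 and 1488. For glycolysis the PBS libraries summed to 8603 to 10437 TPM and Chronic 24 h to 6096 to 7057, while 1 µM Chronic 24 h had 8100 to 9886. The other 1 mM conditions were also below the 1 mM PBS libraries. Acute 1 h had 6583 to 7888, Acute 24 h 4978 to 6380 and Chronic 1 h 6889 to 8017. In 1 µM PBS the sums were 5193 to 8827, the lowest in replicate 2. The HIF target genes were thus low in Chronic 24 h relative to the 1 mM PBS libraries, and at a level met in other libraries of the series, 1 µM PBS included. Markers of choroid plexus and cilia also varied among the PBS libraries, with summed TPM of 2397, 3096 and 727 against 1104, 1142 and 1116 in Chronic 24 h, and their part in the result was not tested.

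**Figure D1:**
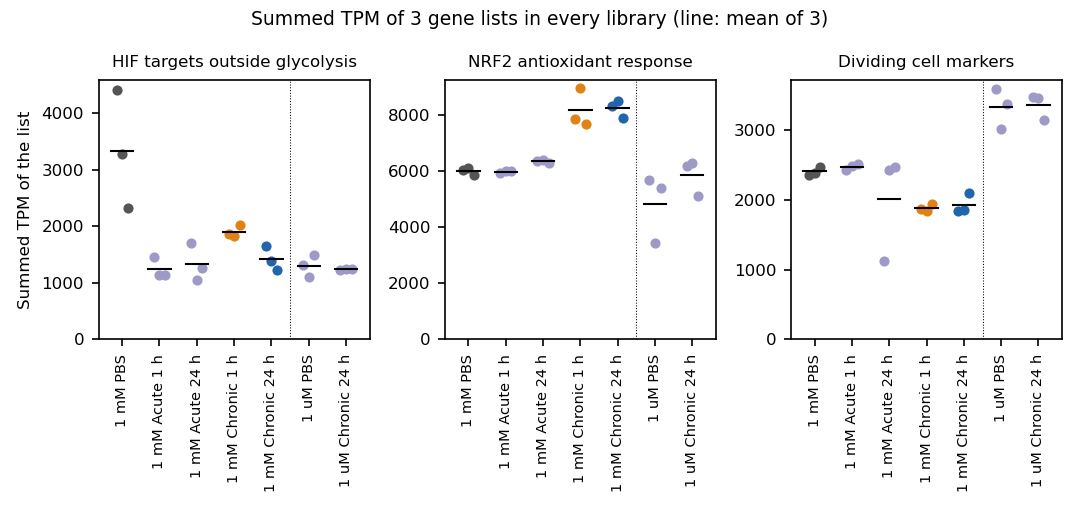
Summed TPM (vertical axis) of the HIF target list, the NRF2 list and the dividing cell markers in each library (points) of 7 conditions (horizontal axis), with a line at the mean of 3 libraries and a dotted line between the 1 mM and 1 µM experiments. The 1 mM PBS libraries are the highest of the 21 libraries for HIF targets, and the Chronic 1 h and Chronic 24 h libraries are the highest for the NRF2 list.

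To show the sequence at which HIF acts, the 250 bases before the annotated start are given for 4 members that fell. HIF binds hypoxia response elements whose core is often written ACGTG. Sequences are from RefSeq (GRCh38.p14), 5′ to 3′ on the gene's strand, and capitals mark ACGTG on either strand (CACGT is the same letters read on the opposite strand). The windows are BNIP3 at chr10:131981924-131982173 (minus strand), ANKRD37 at chr4:185396591-185396840 (plus), PGK1 at chrX:78103998-78104247 (plus) and HK2 at chr2:74834920-74835169 (plus, 1 of 2 annotated starts).
BNIP3: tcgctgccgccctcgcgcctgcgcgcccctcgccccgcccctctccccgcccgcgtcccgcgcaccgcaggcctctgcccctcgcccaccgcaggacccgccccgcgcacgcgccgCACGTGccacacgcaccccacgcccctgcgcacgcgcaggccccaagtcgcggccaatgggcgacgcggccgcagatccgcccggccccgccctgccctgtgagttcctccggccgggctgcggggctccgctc
ANKRD37: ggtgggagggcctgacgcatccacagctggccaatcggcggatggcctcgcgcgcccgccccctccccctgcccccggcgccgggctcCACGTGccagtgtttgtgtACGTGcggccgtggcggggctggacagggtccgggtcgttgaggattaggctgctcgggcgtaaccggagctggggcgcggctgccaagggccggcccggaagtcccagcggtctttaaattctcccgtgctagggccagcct
PGK1: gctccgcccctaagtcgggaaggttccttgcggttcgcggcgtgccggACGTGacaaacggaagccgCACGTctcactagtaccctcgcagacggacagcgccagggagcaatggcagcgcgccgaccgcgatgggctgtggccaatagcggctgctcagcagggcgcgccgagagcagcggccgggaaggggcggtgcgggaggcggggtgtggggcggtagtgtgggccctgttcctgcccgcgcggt
HK2: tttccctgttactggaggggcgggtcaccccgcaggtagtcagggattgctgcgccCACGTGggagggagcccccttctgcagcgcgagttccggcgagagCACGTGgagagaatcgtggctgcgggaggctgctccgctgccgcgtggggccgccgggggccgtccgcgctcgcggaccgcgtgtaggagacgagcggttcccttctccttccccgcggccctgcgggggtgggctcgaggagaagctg

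BNIP3 and PGK1 each hold ACGTG 2 times counted over both strands, ANKRD37 3 times and HK2 4 times. In CACGTG the match on one strand overlaps the match on the other, as it does in the windows of BNIP3, ANKRD37 and HK2. Of the 27 HIF and glycolysis genes that fell, 25 have a window in the RefSeq table, and 16 of the 25 (64%) hold ACGTG. The letters were present in 28.1% of the 12109 tested genes with a window and in 18.5% of all 35116 windows. The longer TACGTG was found for 7 of the 25 genes (28%) and for 3.74% of the tested genes, and CACGTG for 6 of the 25 (24%) and for 10.9%. GCGTG, the other common form of the core, was in 17 of the 25 (68%) and in 51.9%. Among all lower genes with a window, 52 of 154 (33.8%) held ACGTG and 79 of 154 (51.3%) held GCGTG. The 25 genes come from lists of HIF targets and glycolysis genes, and list members that did not fall were not counted. Their share therefore cannot show why genes fell. A match is a description of the window and shows no binding in these cells.

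BNIP3 encodes a mitochondrial outer membrane protein that promotes mitophagy (ENSG00000176171, GRCh38 chr10:131966455-131982013, minus strand). Its TPM was 289, 245 and 187 in the PBS libraries and 98.5, 67.5 and 68.5 in Chronic 24 h. Every dopamine library was below every PBS library. The log2 fold change was -1.64 ± 0.18 (SE), with an edgeR adjusted p of 0.0128. Its relative BNIP3L fell by less, from 304 ± 32.1 to 187 ± 24.6 TPM (log2 fold change -0.73 ± 0.11, edgeR adjusted p = 0.0269).

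Glucose uptake and its first step changed together. SLC2A1, the glucose transporter GLUT1 (ENSG00000117394, chr1:42925375-42958868, minus strand), had 284, 201 and 97.3 TPM in PBS and 58.1, 42.7 and 38.5 in Chronic 24 h. HK2, the hexokinase bound to mitochondria, had 221, 131 and 88.5 TPM in PBS and 52.7, 30.9 and 48.2 in Chronic 24 h. In both genes the groups were separate, and PBS replicate 3 was the lowest and replicate 1 the highest of the controls. The log2 fold change was -2.08 ± 0.33 for SLC2A1 (edgeR adjusted p = 0.0274) and -1.77 ± 0.30 for HK2 (edgeR adjusted p = 0.0324). SLC16A3, which exports lactate, fell from 36.3 ± 9.73 to 9.63 ± 4.81 TPM, a log2 fold change of -1.94 ± 0.34.

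Enzymes in the middle of glycolysis, whose RNAs are among the abundant ones of these cells, fell by a smaller factor. ENO1, an enolase, went from 936 ± 110 to 468 ± 79.2 TPM (log2 fold change -1.02 ± 0.13, edgeR adjusted p = 0.0173). PGK1, phosphoglycerate kinase, went from 375 ± 59.9 to 186 ± 34.4 TPM (-1.03 ± 0.15), and TPI1, triosephosphate isomerase, from 734 ± 48.2 to 425 ± 43.2 TPM (-0.81 ± 0.09). GPI and PGAM1, the isomerase and mutase of the pathway, had log2 fold changes of -0.80 ± 0.12 and -0.69 ± 0.11 and also passed the test. ALDOC, an aldolase, had 115, 139 and 95.7 TPM in PBS and 61.7, 73.6 and 20.96 in Chronic 24 h and did not pass (edgeR adjusted p = 0.133). PDK1, which keeps pyruvate out of the citric acid cycle, fell from 34.1 ± 8.86 to 11.6 ± 3.72 TPM (-1.58 ± 0.24), and AK4, a mitochondrial adenylate kinase, from 38.0 ± 8.83 to 16.0 ± 2.87 TPM (-1.27 ± 0.18).

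Further HIF targets that fell lie outside glucose metabolism. ANKRD37 had 52.3, 29.6 and 11.7 TPM in PBS and 7.15, 4.99 and 3.54 in Chronic 24 h. ADM, which encodes the vasodilator peptide adrenomedullin, had 70.8, 38.6 and 16.0 TPM in PBS and 10.3, 5.84 and 5.57 in Chronic 24 h. DDIT4, an inhibitor of mTORC1 (ENSG00000168209, chr10:72273924-72276036, plus strand), had 1312, 792 and 537 TPM in PBS and 291, 186 and 191 in Chronic 24 h. The 3 genes shared the order of the PBS libraries, replicate 1 highest, and none overlapped between the groups. Their log2 fold changes were -2.59 ± 0.49, -2.55 ± 0.49 and -2.01 ± 0.30, with edgeR adjusted p values of 0.0432, 0.0432 and 0.0269. In total gene reads ANKRD37 and ADM missed the threshold, with adjusted p values of 0.0515 and 0.0583 by the same test. HILPDA, a lipid droplet protein, fell from 123 ± 45.2 to 40.5 ± 8.9 TPM (-1.63 ± 0.25), and STC2, a secreted glycoprotein, from 69.2 ± 22.4 to 21.8 ± 5.61 TPM (-1.69 ± 0.25).

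Enzymes that hydroxylate and cross-link collagen, which HIF also drives, were part of the decrease. PLOD2, a lysyl hydroxylase, fell from 38.8 ± 7.25 to 16.5 ± 0.843 TPM (log2 fold change -1.26 ± 0.13, edgeR adjusted p = 0.0121). P4HA1, a prolyl hydroxylase subunit, fell from 211 ± 70.1 to 92.0 ± 22.1 TPM (-1.22 ± 0.24), with an adjusted p of 0.0494 in exon reads and 0.0521 in total gene reads, and LOX, lysyl oxidase, from 42.8 ± 9.75 to 20.2 ± 3.96 TPM (-1.11 ± 0.18). Of 11 tested collagen-modifying hydroxylases, 2 fell and none rose. Among 21 collagen genes 2 fell: COL11A1, a fibrillar collagen, from 85.0 ± 11.98 to 51.9 ± 2.77 TPM, and COL9A1, a collagen of cartilage-type fibrils, from 8.08 ± 0.795 to 4.37 ± 0.989 TPM (adjusted p = 0.086 in total gene reads).

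**Figure D2:**
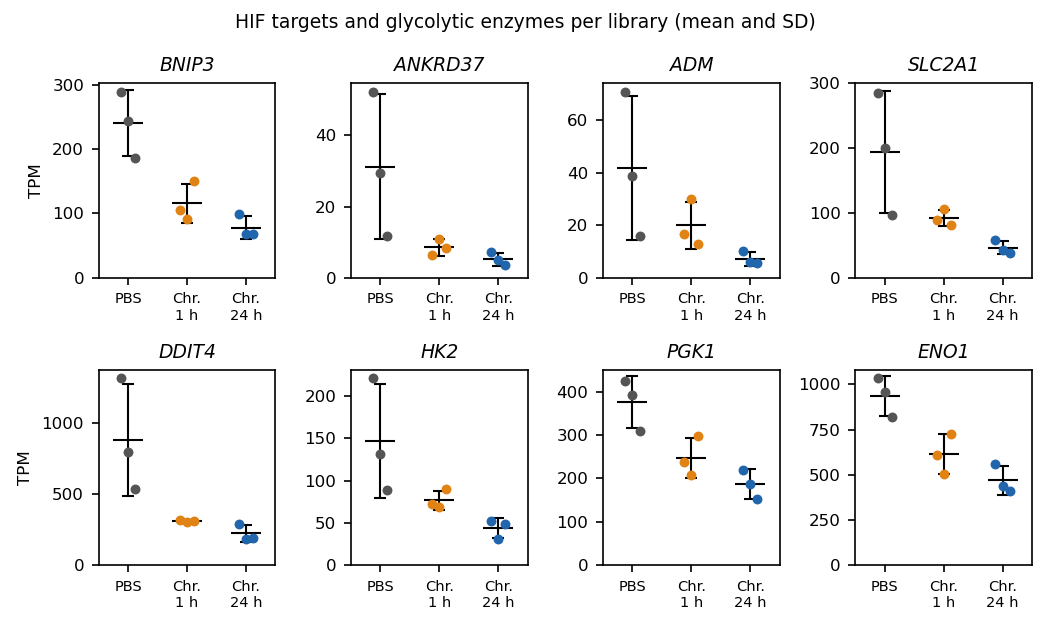
TPM (vertical axis, from 0) of 8 HIF-regulated genes in each library (points) of PBS, Chronic 1 h and Chronic 24 h, with the mean and SD of 3 libraries. In each of the 8 genes the 3 Chronic 24 h libraries lie below the 3 PBS libraries, as for BNIP3 at 67.5 to 98.5 against 187 to 289 TPM.

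Genes of the NRF2 antioxidant response had more members among the higher genes than any other list, a ranking that is likewise a description. Of 27 tested members 7 rose and none fell, and the median log2 fold change was 0.31. The 7 members make up 7 of the 52 higher genes, and 7 members also rose in total gene reads. The summed TPM of the list was 6022, 6099 and 5852 in PBS and 8300, 8504 and 7902 in Chronic 24 h, without overlap. The Chronic 1 h libraries had 7689 to 8963 and the acutely dosed 1 mM libraries 5919 to 6389, while both 1 µM conditions lay between 3425 and 6291. The value of 3425 is that of 1 µM PBS replicate 2, which stood apart, and the next lowest was 5097. The high summed level was thus found in both chronic 1 mM conditions. Single members were above PBS at 1 mM Acute 24 h too, with NQO1 at 44.5, 48.9 and 39.1 TPM and TXNRD1 at 158, 107 and 116. SLC7A11 had 48.6, 11.0 and 14.2 TPM there and HMOX1 67.1, 13.3 and 13.2, both highest in replicate 1, which stood apart. AKR1C3 and FTH1 overlapped with PBS at Acute 24 h.

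NQO1, a quinone reductase (ENSG00000181019, chr16:69706996-69726668, minus strand), was the member with the smallest adjusted p. Its TPM was 21.4, 19.3 and 22.5 in PBS and 75.4, 62.5 and 90.3 in Chronic 24 h. The lowest dopamine library was well above the highest control. The log2 fold change was 1.83 ± 0.13, a fold of 3.54, with an edgeR adjusted p of 0.00335 in exon reads and 0.00765 in total gene reads. With 1 library left out, the adjusted p of NQO1 ranged from 0.00012 to 0.057.

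HMOX1, heme oxygenase (ENSG00000100292, chr22:35380361-35394207, plus strand), which breaks down heme and frees its iron, had 8.48, 5.71 and 5.86 TPM in PBS and 18.6, 14.4 and 24.5 in Chronic 24 h. AKR1C3, an aldo-keto reductase, had 0.674, 0.870 and 0.893 TPM in PBS and 3.93, 4.27 and 3.76 in Chronic 24 h. Neither gene had overlapping groups. The log2 fold changes were 1.49 ± 0.24 (edgeR adjusted p = 0.0275) and 2.26 ± 0.25 (edgeR adjusted p = 0.0128). AKR1C3 also passed in total gene reads, with a log2 fold change of 0.98 (edgeR adjusted p = 0.0417).

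Members of the glutathione, thioredoxin and iron arms rose by smaller factors. SLC7A11, the cystine transporter that supplies glutathione synthesis, had 6.45, 7.81 and 8.51 TPM in PBS and 15.4, 14.2 and 17.8 in Chronic 24 h (log2 fold change 1.03 ± 0.13, edgeR adjusted p = 0.0173). TXNRD1, thioredoxin reductase, went from 67.7 ± 4.97 to 108 ± 12.1 TPM (0.64 ± 0.09, edgeR adjusted p = 0.0264). FTH1, the ferritin heavy chain, which stores iron, had 2268, 2219 and 2076 TPM in PBS and 3122, 3165 and 2966 in Chronic 24 h (0.47 ± 0.07, edgeR adjusted p = 0.0269). FTH1 has many processed copies in the genome, to which part of its reads also map. PIR, pirin, an iron-binding nuclear protein outside the list, rose from 25.0 ± 1.22 to 52.4 ± 4.9 TPM (1.04 ± 0.11).

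For NRF2 the letters TGACNNNGC, the core of the antioxidant response element, were searched in the same windows. TXNRD1 holds them in the window at chr12:104215529-104215778 (plus strand, 1 of 2 annotated starts), shown because it was the only member that rose to hold them, with the match in capitals.
TXNRD1: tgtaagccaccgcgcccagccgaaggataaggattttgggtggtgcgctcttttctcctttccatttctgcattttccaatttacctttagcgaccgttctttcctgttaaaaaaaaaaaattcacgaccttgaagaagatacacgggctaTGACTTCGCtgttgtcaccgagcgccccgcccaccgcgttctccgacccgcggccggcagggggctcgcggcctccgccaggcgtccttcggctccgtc

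Of the 7 NRF2 members that rose, 4 have a window in the table and 1 of the 4 (25%) holds the core, which was present in 15.6% of tested genes with a window and in 10.9% of all windows. With 4 genes this is a description of those sequences. A longer form of the core with a final A was found for 1 of the 4 genes, TXNRD1, which has 2 annotated starts. The window printed above does not hold this longer form, since a T follows its core. The form of the core that holds an AP-1 site, the cAMP response element and the AP-1 site TGAGTCA were found in 0 of the 4.

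**Figure D3:**
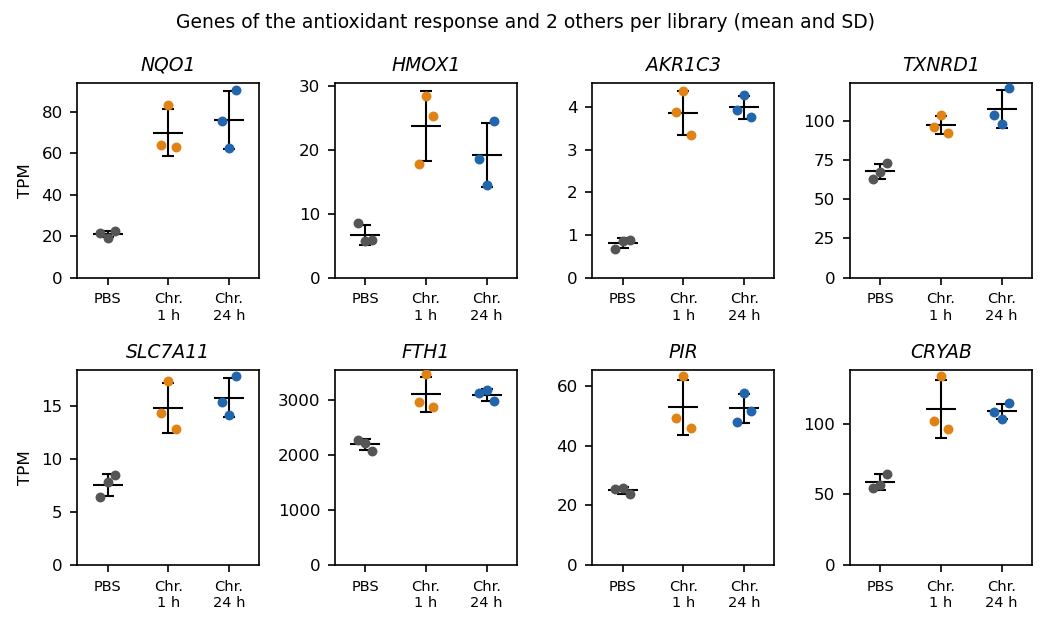
TPM (vertical axis, from 0) of 8 higher genes of the NRF2 response and of protein and redox protection in each library (points) of PBS, Chronic 1 h and Chronic 24 h, with the mean and SD of 3 libraries. In each gene the 3 Chronic 24 h libraries lie above the 3 PBS libraries, and the Chronic 1 h libraries are in the range of Chronic 24 h or near it.

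Stress genes outside the NRF2 list changed in few cases. CRYAB, a small heat shock protein, had 54.2, 56.6 and 64.7 TPM in PBS and 108, 103 and 114 in Chronic 24 h (log2 fold change 0.86 ± 0.08, edgeR adjusted p = 0.0113), and was the 1 gene of 18 heat shock proteins and co-chaperones to pass. SESN2, a sestrin that restrains mTORC1, rose from 47.1 ± 1.28 to 68.7 ± 3.04 TPM and NUPR1, a stress-induced nuclear protein, from 3.91 ± 0.272 to 7.11 ± 0.414 TPM. In the ATF4 integrated stress response list 2 of 24 genes were higher and 1 lower. The p53 list had 2 of 20 higher, BAX, which permeabilises mitochondria, with a log2 fold change of 0.45 ± 0.07, and PLK3, a stress-activated kinase, with 0.49 ± 0.10 (adjusted p = 0.0645 in total gene reads). None of 18 unfolded protein response genes, 18 interferon response genes or 5 metallothionein and zinc transport genes passed. MT2A, a metallothionein, had 14.2 ± 1.54 TPM in PBS and 22.8 ± 2.49 in Chronic 24 h (edgeR adjusted p = 0.133).

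Several of the higher genes were at low levels. EREG, which encodes the EGF receptor ligand epiregulin, had 0.323, 0.0851 and 0.0437 TPM in PBS and 1.11, 1.14 and 1.39 in Chronic 24 h. CXCL5, a chemokine, had 0.108, 0.898 and 0.921 TPM in PBS and 3.91, 4.61 and 3.88 in Chronic 24 h. The groups of both genes were separate, and all values of EREG were near or below 1 TPM. The log2 fold changes were 2.97 ± 0.52 (edgeR adjusted p = 0.0334) and 2.62 ± 0.47 (edgeR adjusted p = 0.0388). The log2 fold change of EREG was 0.97 in total gene reads, and with 1 library left out its exon value ranged from 2.55 to 4.10. KRT81, a hair keratin, rose from 0.549 ± 0.645 to 5.10 ± 1.31 TPM on 0, 10 and 3 exon reads in PBS, with a log2 fold change of 3.12 that ranged from 2.57 to 4.54 with 1 library left out. LAMB3, a laminin chain of epithelial basement membranes, rose from 1.58 ± 0.353 to 3.67 ± 0.398 TPM.

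SERPINA3, a secreted protease inhibitor, was higher at a moderate level, with 7.01, 7.97 and 10.6 TPM in PBS and 26.4, 24.0 and 17.4 in Chronic 24 h (log2 fold change 1.38 ± 0.20, edgeR adjusted p = 0.0265). Few of its exon reads mapped uniquely, 4 of 133, 10 of 164 and 10 of 213 in PBS and 33 of 541, 19 of 459 and 18 of 350 in Chronic 24 h, and the gene overlaps AL049839.2 on the same strand, so that its level is uncertain. F2RL2, a thrombin receptor, SRPX2, a secreted sushi repeat protein, IMPG2, a proteoglycan, and the long noncoding LINC02154 had log2 fold changes of 1.81 ± 0.33, 1.57 ± 0.24, 1.82 ± 0.36 and 2.06 ± 0.35. The fold was smaller in total gene reads for SRPX2 (0.97), IMPG2 (0.75) and LINC02154 (1.10). In total gene reads KRT81, EREG, LINC02154, IMPG2 and LAMB3 did not pass, with adjusted p values between 0.0725 and 0.1, and F2RL2 was at 0.05002. AMIGO3 had 0 exon reads in all PBS libraries and 11 to 26 in Chronic 24 h, at least 6.81-fold higher by TPM against a floor of 3 reads per library. In no library did more than 1 of these reads map uniquely, and the gene lies within GMPPB on the same strand, so that its difference is uncertain.

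Lower genes outside metabolism included secreted and developmental genes. TRH, the precursor of thyrotropin-releasing hormone, had 14.2, 12.1 and 8.15 TPM in PBS and 2.15, 4.27 and 2.35 in Chronic 24 h (log2 fold change -1.996 ± 0.34, edgeR adjusted p = 0.0312). ADAMTS20, a secreted metalloprotease, fell from 1.38 ± 0.329 to 0.254 ± 0.15 TPM, DCLK3, a kinase, from 2.45 ± 0.238 to 0.734 ± 0.19 TPM, and PRRG3, a membrane protein, from 7.70 ± 0.853 to 2.44 ± 1.17 TPM. DNAH11, a dynein of motile cilia, fell from 1.70 ± 0.384 to 0.575 ± 0.229 TPM and was the 1 gene of 9 choroid plexus and cilia markers to pass. HLA-DRB1, an antigen-presenting class II gene with near-identical copies, had a log2 fold change of -1.70 ± 0.29. The log2 fold change in exon reads and in total gene reads was -2.44 and -0.56 for ADAMTS20, -1.76 and -1.03 for DCLK3 and -1.58 and -0.48 for DNAH11. DNAH11, ADAMTS20, HLA-DRB1 and PRRG3 did not pass in total gene reads (adjusted p from 0.0504 to 0.183). At 1 mM Acute 1 h PRRG3 had 2.95 to 3.89 TPM and ADAMTS20 0.112 to 0.708, also below the 1 mM PBS libraries, while TRH overlapped with them. In 1 µM PBS PRRG3 had 10.7 to 16.2 TPM and ADAMTS20 1.29 to 1.81, and the reason for these differences was not tested.

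Of 32 tested immediate early genes 1 rose and none fell a day after the last dose, with a median log2 fold change of -0.01 and single values from -0.69 to 1.73. The highest value was that of FOSL1, another AP-1 subunit, singled out after its values were seen, which had 0.794 ± 0.236 TPM in PBS and 2.73 ± 0.912 in Chronic 24 h and did not pass (edgeR adjusted p = 0.0745). No member passed in total gene reads. FOS, a subunit of AP-1, had 16.7, 12.6 and 19.1 TPM in PBS and 15.9, 16.2 and 13.5 in Chronic 24 h. The groups overlapped, with a log2 fold change of -0.11 ± 0.17 (edgeR adjusted p = 0.774). JUNB, its partner, had -0.09 ± 0.15, ARC, a synaptic plasticity gene, -0.18 ± 0.18, and FOSB 0.05 ± 0.46 at 0.586 ± 0.352 TPM in PBS. The neuronal activity factor NPAS4 had 2.12 ± 2.39 TPM in PBS and 2.79 ± 1.76 in Chronic 24 h, and the orphan nuclear receptor NR4A1 had 14.5 ± 1.07 and 14.8 ± 4.32 TPM.

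ATF3, a stress-induced AP-1 family factor, was the member that rose. It had 13.1, 15.3 and 10.3 TPM in PBS and 21.03, 23.0 and 21.9 in Chronic 24 h (log2 fold change 0.74 ± 0.15, edgeR adjusted p = 0.0469; adjusted p = 0.0645 in total gene reads). EGR1, a zinc finger factor, had 19.2, 13.9 and 17.8 TPM in PBS and 41.6, 42.1 and 22.8 in Chronic 24 h. All dopamine libraries were above the controls, but the adjusted p was 0.0629 (edgeR), with a log2 fold change of 1.04 ± 0.23. Feedback regulators of ERK and cAMP signalling (24 genes) and late activity-regulated secreted and synaptic genes (21 genes) had no member that passed, and DUSP4, a MAP kinase phosphatase, was nearest, at 144 ± 19.3 TPM in PBS and 207 ± 14.4 in Chronic 24 h (edgeR adjusted p = 0.0553).

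The Chronic 1 h libraries show what these genes did after the last dose. Between Chronic 24 h and Chronic 1 h, 314 of 17079 genes differed (1.84%), 47 higher at 24 h (0.275%) and 267 lower (1.56%). Of 34 tested immediate early genes 23 were lower at 24 h and none higher, with a median log2 fold change of -1.24. FOS had 157, 164 and 168 TPM at 1 h against 15.9, 16.2 and 13.5 at 24 h, a log2 fold change of -3.41 (edgeR adjusted p = 3.66e-07). EGR1 had 332, 371 and 344 TPM at 1 h, and its log2 fold change from 1 h to 24 h was -3.28 (edgeR adjusted p = 0.000102). No library of one time overlapped with the other for either gene. SOCS3, a feedback inhibitor of cytokine receptors, was at 130, 120 and 142 TPM at 1 h and 9.73, 6.31 and 7.01 at 24 h, a log2 fold change of -4.06.

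Other members gave the same direction. EGR2, EGR3 and EGR4 had log2 fold changes of -4.995, -4.00 and -4.43 between 24 h and 1 h, FOSB -3.57, JUNB -2.75 and ARC -2.74. ATF3 fell from 56.8, 66.8 and 61.5 TPM at 1 h to its level above PBS at 24 h, a log2 fold change of -1.47 (edgeR adjusted p = 9.71e-05). The zinc exporter SLC30A1 had 107.8, 109.8 and 101.9 TPM at 1 h, 31.1, 39.7 and 38.9 at 24 h and 24.5, 28.7 and 24.8 in PBS. It was lower at 24 h than at 1 h (log2 fold change -1.53, edgeR adjusted p = 0.000107) and did not pass against PBS (edgeR adjusted p = 0.0784).

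The NRF2 list behaved otherwise. None of its 27 tested members differed between 24 h and 1 h, with a median log2 fold change of 0.06, and NQO1 had 63.8, 83.1 and 62.9 TPM at 1 h. Of the 31 HIF targets 4 were lower at 24 h than at 1 h, with a median of -0.47, and none of 19 glycolysis genes passed. SLC2A1 was among the 4, with 89.7, 105 and 80.6 TPM at 1 h (log2 fold change -0.97, edgeR adjusted p = 0.0144). The few genes higher at 24 h than at 1 h included EREG (log2 fold change 2.05, edgeR adjusted p = 0.0356), CCNO, a cyclin-family gene of ciliated cells (1.42), CLK1, a splicing kinase (0.81), LINC01355 (0.71) and LY6G5B (0.69).

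**Figure D4:**
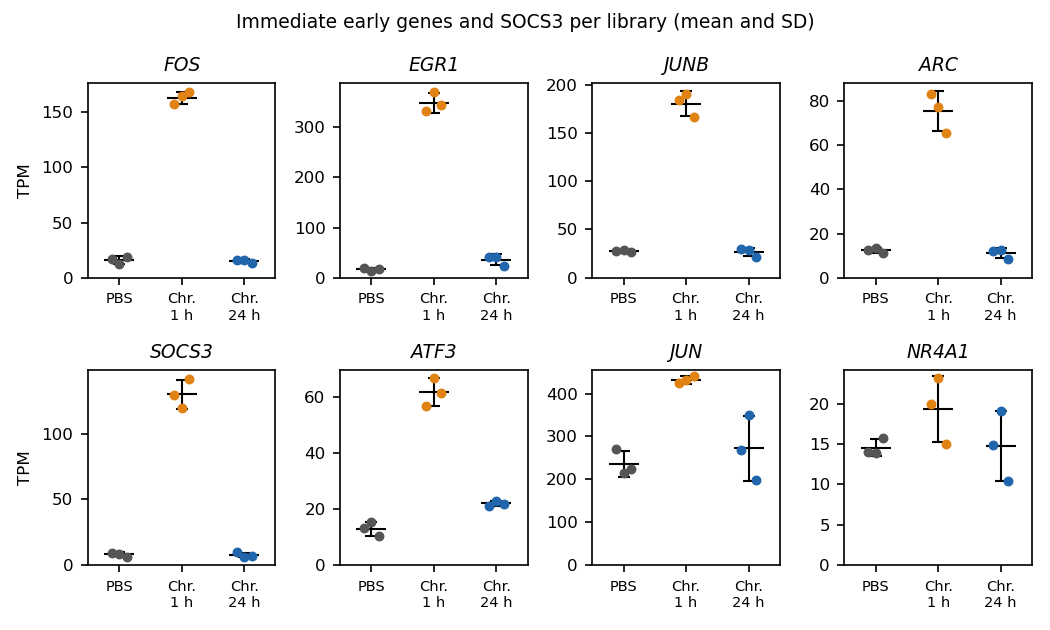
TPM (vertical axis, from 0) of 8 immediate early and feedback genes in each library (points) of PBS, Chronic 1 h and Chronic 24 h, with the mean and SD of 3 libraries. FOS, EGR1, JUNB, ARC, SOCS3 and ATF3 stand highest 1 h after the last dose, and at 24 h FOS, JUNB, ARC and SOCS3 overlap with PBS, while all ATF3 and EGR1 libraries are above it.

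Receptors and signalling genes of the dopamine response did not pass the test. None of 6 tested dopamine and adenosine receptors, 10 genes of dopamine synthesis, transport and breakdown or 25 genes of striatal cAMP signalling differed between Chronic 24 h and PBS. DRD1 had 2.35, 1.87 and 0.619 TPM in PBS and 1.45, 0.778 and 0.926 in Chronic 24 h, and DRD2, the D2 receptor, 3.71, 2.60 and 2.61 and 4.03, 3.05 and 4.78. Both overlapped between the groups, with log2 fold changes of -0.63 ± 0.47 and 0.39 ± 0.25, so that at these levels and with 3 libraries only large changes of the receptors could have been seen. ADORA2A, the adenosine receptor of indirect-pathway neurons, had 5.32 ± 0.46 and 5.42 ± 1.19 TPM. Its level is uncertain, since 10 of 84, 6 of 100 and 8 of 82 exon reads in PBS and 7 of 81, 11 of 109 and 14 of 80 in Chronic 24 h mapped uniquely, and it overlaps SPECC1L-ADORA2A on the same strand. ADORA1 had 33.8 ± 1.21 and 40.4 ± 6.64 TPM. TH, the enzyme that makes the dopamine precursor L-DOPA, had 2.80 ± 1.23 and 1.75 ± 1.03 TPM (edgeR adjusted p = 0.484).

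Markers of neurons and of MSNs gave no call. None of the 25 MSN markers passed, with a median log2 fold change of -0.06, and none of 14 pan-neuronal markers, with a median of 0.01. BCL11B, the transcription factor CTIP2 of MSNs and deep cortical layers, had 46.9 ± 5.45 TPM in PBS and 49.6 ± 1.86 in Chronic 24 h. PPP1R1B had 24.5, 21.7 and 20.3 TPM in PBS and 18.8, 17.8 and 12.2 in Chronic 24 h, values that do not overlap but did not pass (log2 fold change -0.47 ± 0.16, edgeR adjusted p = 0.174). Among synaptic and channel genes, GRIN1, the obligate NMDA receptor subunit, was the 1 of 24 glutamate receptor genes to fall, from 13.9 ± 1.48 to 8.64 ± 0.353 TPM (-0.71 ± 0.12, edgeR adjusted p = 0.0312). CACNA1G, a T-type calcium channel, was the 1 of 30 voltage-gated channel genes to fall, from 26.1 ± 1.47 to 19.8 ± 1.54 TPM. None of 20 GABA receptor and synthesis genes and none of 26 presynaptic release genes passed.

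Dividing cell markers were lower in the Chronic 24 h libraries. Of 24 tested markers 10 fell and none rose, all 24 had a negative log2 fold change, and the median was -0.36. TOP2A, the topoisomerase of mitosis, had 290, 279 and 291 TPM in PBS and 200, 221 and 223 in Chronic 24 h. CCNB2, a mitotic cyclin, had 73.7, 83.2 and 78.7 TPM in PBS and 54.7, 55.7 and 56.1 in Chronic 24 h. Both genes separated the groups, with log2 fold changes of -0.45 ± 0.07 (edgeR adjusted p = 0.0275) and -0.53 ± 0.08 (edgeR adjusted p = 0.0269). NUSAP1 and UBE2C, which act on the spindle and on cyclin degradation, had -0.46 ± 0.06 and -0.47 ± 0.08, and the spindle checkpoint kinases BUB1 and BUB1B -0.47 ± 0.08 and -0.46 ± 0.08. BUB1B did not pass in total gene reads (adjusted p = 0.0645). The summed TPM of the list was 2363, 2390 and 2479 in PBS and 1847, 1859 and 2096 in Chronic 24 h. The Chronic 1 h libraries, of the same stated culture day, had 1842 to 1944, and the 1 mM Acute 1 h libraries, of DIV45, had 2434 to 2517. Days of dosing and days of culture cannot be told apart here.

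Progenitor genes fell in part. HES5, a Notch-driven repressor of neuronal differentiation (ENSG00000197921, chr1:2528745-2530263, minus strand), had 86.2, 85.2 and 76.7 TPM in PBS and 28.2, 38.7 and 47.8 in Chronic 24 h. All Chronic 24 h libraries were below the controls, with a log2 fold change of -1.14 ± 0.17 (edgeR adjusted p = 0.0269). HES5 was also below PBS at 1 mM Acute 1 h (42.7, 42.4 and 34.1 TPM) and Chronic 1 h (28.7, 34.4 and 27.4). At Acute 24 h it had 175, 61.9 and 75.4 TPM, the highest in replicate 1, which stood apart. HES1, HES6 and HEY1, factors of the same family, had log2 fold changes of -0.52 ± 0.09, -0.48 ± 0.09 and -0.47 ± 0.09, so that 4 of 19 tested Notch pathway genes fell and none rose, with a median of -0.39. In total gene reads HES5 alone of the 4 passed. VIM, the intermediate filament of radial glia, fell from 1629 ± 197 to 1025 ± 84.7 TPM (-0.69 ± 0.10, edgeR adjusted p = 0.0269). With HES1 and HES5 it made 3 of 14 radial glia markers that fell, and the median of that list was -0.10.

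Several marker lists of other cell types held no call. None of 10 astrocyte, 13 mesenchymal, 11 ventral forebrain progenitor, 8 medial ganglionic eminence or 11 glutamatergic and cortical markers passed, nor any of 5 endothelial and immune and 2 pluripotent markers with enough reads. GJA1, an astrocyte gap junction gene, had 140 ± 4.59 TPM in PBS and 171 ± 21.7 in Chronic 24 h (edgeR adjusted p = 0.156). TTR, the transthyretin of choroid plexus, had 1974, 2673 and 503 TPM in PBS and 850, 918 and 826 in Chronic 24 h. PBS replicate 3 lay below all dopamine libraries and the other two far above them, and the gene did not pass (edgeR adjusted p = 0.278).

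Lipid synthesis genes had small negative values. All 25 tested cholesterol genes had a negative log2 fold change, with a median of -0.28, but 1 passed: ACAT2, which makes acetoacetyl-CoA, from 191 ± 18.3 to 144 ± 6.06 TPM (-0.44 ± 0.08, edgeR adjusted p = 0.0432; 0.088 in total gene reads). HMGCS1, the synthase that commits to the pathway, had 525, 578 and 579 TPM in PBS and 366, 558 and 277 in Chronic 24 h. Chronic 24 h replicate 2 was near the controls for HMGCS1 and the other two were below (log2 fold change -0.51 ± 0.21, edgeR adjusted p = 0.253). Of 11 fatty acid synthesis genes 1 fell, SREBF1, the transcription factor that drives them, from 33.6 ± 1.39 to 25.3 ± 2.41 TPM (-0.44 ± 0.08, edgeR adjusted p = 0.0407). SCD, the stearoyl-CoA desaturase, had a log2 fold change of -0.65 ± 0.17 and did not pass (edgeR adjusted p = 0.0887). The summed TPM of the cholesterol list was 4151 to 4651 in PBS, 2902 to 4504 in Chronic 24 h and 3258 to 3535 in 1 mM Acute 1 h. The fatty acid list had 2098 to 2255, 1427 to 1971 and 1645 to 1925. Both lists were thus below the 1 mM PBS libraries at Acute 1 h as well, and the reason was not tested.

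The remaining lists held 3 calls or fewer. Among 49 Wnt genes DKK3, a secreted Dickkopf family member, fell from 50.2 ± 1.68 to 38.3 ± 1.71 TPM, and none of 44 TGF-beta and BMP genes passed. Among 42 other matrix genes TNR, tenascin-R of perineuronal nets, fell with LOX, from 13.3 ± 0.866 to 8.67 ± 0.711 TPM, while BCAN, the brain proteoglycan brevican, rose from 26.0 ± 3.05 to 39.9 ± 1.8 TPM. One of 13 mitochondrially encoded genes rose, MT-ND2, a complex I subunit, with a log2 fold change of 0.51 ± 0.10 (edgeR adjusted p = 0.0478). TNR, BCAN and MT-ND2 did not pass in total gene reads, with adjusted p values of 0.0828, 0.0711 and 0.0953. None of 19 circadian clock genes passed. BHLHE40, a clock repressor and HIF target, had 145, 82.4 and 55.4 TPM in PBS and 38.9, 38.0 and 24.2 in Chronic 24 h, which do not overlap (log2 fold change -1.51 ± 0.32, edgeR adjusted p = 0.0556).

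**Figure D5:**
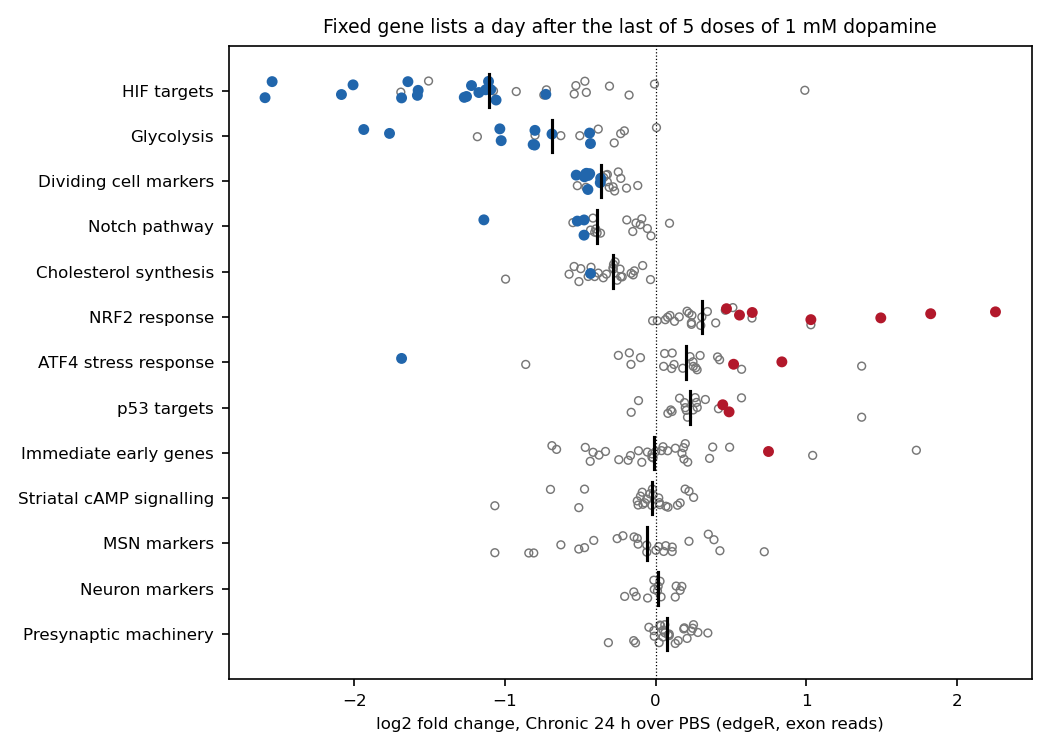
Log2 fold change of Chronic 24 h against PBS (horizontal axis) for each tested member (points) of 13 gene lists, with a black bar at the median of a list. Filled points passed the test (red higher, blue lower) and open points did not, and the HIF, glycolysis and dividing cell lists lie mainly below 0 and the NRF2 list above it.

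The same schedule at the lower dose gave no calls. In 1 µM Chronic 24 h against 1 µM PBS, 3 libraries each, 0 of 15495 genes passed the edgeR test (0%), 773 had an unadjusted p under 0.05, and 3 passed with DESeq2. The median log2 fold change there was -0.13 for the HIF targets, 0.17 for glycolysis, 0.17 for the NRF2 list and -0.03 for the dividing cell markers. The difference between the doses was tested as an interaction over the 12 libraries, and 0 of 17593 genes passed (0%), with 1850 at an unadjusted p under 0.05 and 240 passing with DESeq2. SLC7A11 had the log2 fold changes 1.03 at 1 mM and -1.002 at 1 µM, and its interaction had an adjusted p of 0.096 (edgeR). The 1 µM value rests on low levels, 1.27, 1.10 and 2.00 TPM in PBS and 0.716, 0.817 and 0.693 in Chronic 24 h. It did not pass (edgeR adjusted p = 0.724). For NQO1 the log2 fold change at 1 µM was 0.30. The depths differed, with 8792569 to 27702963 exon reads in the 1 µM libraries, and the 1 mM and 1 µM experiments had separate PBS controls.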

How the data were processed

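RNA was sequenced from hMSN-like cells, and the authors trimmed reads, mapped them to GRCh38 (Ensembl 102 annotation) and counted them per gene in CLC Genomics Workbench 21.0.5. The deposited tables, 1 per library with 60676 genes, hold counts of reads on exons and on whole genes, in all and uniquely mapped, and TPM, which the authors computed from exon reads. The strand setting and which sequencing provider made which library are not given in the sources used here; overlapping and antisense genes therefore cannot be separated. Libraries were grouped by their labels.

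Exon counts of the 6 libraries entered edgeR 4.0.16 (R 4.3.3): filterByExpr (minimum count 10, minimum total 15), TMM scaling, the quasi-likelihood test and Benjamini-Hochberg adjustment over all tested genes. SE is the size of the log2 fold change over the root of its F statistic. The same fit on Chronic 24 h against Chronic 1 h, on the 1 µM libraries and on the interaction of dose followed. Alternatives were total gene reads, uniquely mapped reads, DESeq2 1.42.0, its size factors, other filters, all 5 conditions of the 1 mM experiment in 1 fit, a replicate block and leaving out each library. On data simulated for this comparison (16724 genes), edgeR found 76.8% of genes changed by a log2 fold of 1 and 99% of those changed by 2.

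The members and the 42 gene lists (817 genes, 815 in the files) were chosen with earlier results of these data known, and the 9 motifs after the results were seen. The text names the 15 genes that changed most in each direction among those past the threshold with at least 1 TPM in the higher group, no overlap of TPM and a gene symbol, then FOS, FOSB, EGR1, JUNB, ARC, NPAS4, NR4A1, DRD1, DRD2, ADORA2A, PPP1R1B and TH, up to 6 list members past the threshold (or the 2 most abundant members of lists not given by counts alone) and the 5 largest in each direction for the other comparisons. Depth, 16122436 to 17345183 exon reads, limits genes under 1 TPM most. Some genes that the rule names are not reported here.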

Additional observations from a re-analysis of the deposited data

How the results depend on the processing

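The count of genes that differed between Chronic 24 h and PBS was 246, and with other settings 760 (DESeq2), 934 (no filter on low counts), 118 (all 5 conditions in one fit), 42 (the same on total gene reads), 1542 (the same without 1 mM Acute 24 h replicate 1) and 0 to 1186 with 1 library left out. DEGs by the study's thresholds numbered 139, 215, 25 and 204 with DESeq2, without the filter, with 5 conditions on total gene reads and with 5 conditions without that library, 176 with a fold change threshold of 0.5 on the log2 scale, and 0 to 220 with 1 library left out. Calls within the gene lists (68) became 143, 171, 33, 17 and 193 with DESeq2, no filter, 5 conditions, these on total gene reads and these without that library, and 0 to 166 with 1 library left out. Of the 72 named genes that passed, 46 did so in total gene reads, 32 with 5 conditions and 14 with these on total gene reads, and 0 to 87 named genes passed with 1 library left out. Chronic 24 h against Chronic 1 h (314) gave 646 with DESeq2, 514 without the filter and 101 to 975 with 1 library left out, lowest without Chronic 24 h replicate 1 and highest without replicate 3. The 1 µM comparison (0) gave 3 with DESeq2, and the difference between the doses (0) gave 240 with DESeq2, 80 without the filter and 0 to 34 with 1 library left out: 20 without 1 mM PBS replicate 3, 34 without 1 µM PBS replicate 2 and 1 without 1 µM PBS replicate 3. The cause of these shifts was not tested. The 5-condition fits on total gene reads or without that library, the block on total gene reads and the alternatives for the dose difference were added after seeing the data.

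Whether replicate numbers pair the samples was not settled. Same-numbered Chronic 24 h and PBS libraries had deviations from the group means that correlated at -0.030, 0.183 and 0.093. For replicates 2 and 3 these values were above those of their crossed pairs, -0.133 and -0.159. Chronic 24 h replicate 1 correlated best with PBS replicate 3. With the replicate number as a block 458 genes passed, 109 of them in the lists, and 285 in total gene reads.

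Genes that did not pass changed sign near 0 in some settings. ADORA2A was at -0.046 in total gene reads, -0.00394 without the filter, -0.011 with the block, -0.0475 with both total gene reads and the block, -0.025 with 5 conditions on total gene reads, -2.29e-05 with 5 conditions without Acute 24 h replicate 1, and NR4A1 at 0.011 in uniquely mapped exon reads and 0.000559 with DESeq2. With 1 library left out the log2 fold change ranged from -0.209 to 0.0964 for ADORA2A, -0.0312 to 0.147 for BCL11B, -0.128 to 0.508 for EGR3, -0.268 to 0.0334 for FOS, -0.227 to 0.656 for FOSB, -0.0541 to 0.374 for JUN, -0.170 to 0.0460 for JUNB, -0.141 to 0.0685 for NEUROD6, -0.214 to 1.88 for NPAS4, -0.241 to 0.205 for NR4A1 and -0.0210 to 0.0777 for STMN2. Depth limits genes such as the dopamine receptors.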
